A study of Arabidopsis thaliana with 8 samples.

Results

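The genes described here build and steer the plant cytoskeleton. They are 46 loci of Arabidopsis thaliana, chosen by locus identifier with earlier results of these data known. The loci encode 6 alpha-tubulins, 9 beta-tubulins, 8 actins, 2 profilins and 2 actin-depolymerizing factors (ADFs). They also encode 5 subunits of the ARP2/3 complex, 4 subunits of the SCAR/WAVE complex and 10 microtubule-associated proteins. Of the 46 loci, 35 appeared in a count table of 17710 loci and 11 did not. The study set seedlings with various forms of cotyledon cell side by side, and its labels describe 8 RNA-seq libraries, 2 from each of cae2-1, CA1-1, cae2-1 CA1-1 and Col. The labels do not say what kind of alleles cae2-1 and CA1-1 are. Everything below comes from Col, the Columbia accession, whose label names neither allele. These were whole shoots of seedlings aged 7 days, grown on upright MS agar plates under 16 h of light and 8 h of dark. Only the 2 count columns of Col, replicates 1 and 2, have names that match a sample title, so they are taken as Col by name alone. The remaining genotypes were not analysed here.

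Counts are given per model, that is, a locus with an isoform number, and summed to 2571129 reads in replicate 1 and 2408685 in replicate 2. The 35 listed cytoskeletal loci took 0.593% of these reads in replicate 1 and 0.535% in replicate 2, with 95% Wilson intervals of 0.583 to 0.602 and 0.526 to 0.544. Such intervals cover counting error only and treat every read as independent. The labels describe no molecular identifiers to tell PCR copies apart, so the intervals may be too narrow. The tissue label was checked with markers: all 6 shoot photosynthesis genes were listed, with summed levels of 65969 CPM (counts scaled to the size of the library) in replicate 1 and 34967 CPM in replicate 2. Of 7 root markers, COBL9, RHD6, EXPA7 and TIP2;3 were at 0 in either library. CASP1 stood at 21.3 CPM in replicate 1 and 4.43 CPM in replicate 2, and CASP2 at 8.43 and 6.84 CPM. The remaining root marker, PYK10, a beta-glucosidase gene also active in ER bodies of seedling shoots, stood at 2219 CPM in replicate 1 and 4157 CPM in replicate 2. Of 3 seed markers SESA1 alone was listed, at 1.61 and 2.01 CPM. These marker sums differ between the libraries, and their part in the differences described below was not tested. In whole shoots, fewer cells of a type and less RNA per cell cannot be told apart.

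Microtubules are hollow filaments of alpha- and beta-tubulin, joined as heterodimers, and actin filaments are polymers of a single globular protein. In cotyledon and leaf epidermis, cortical microtubules guide the deposition of cellulose and mark the indentations of the jigsaw-shaped pavement cells, while fine actin accumulates where lobes grow out. Actin branching there is driven by the ARP2/3 complex, which the SCAR/WAVE complex activates downstream of ROP GTPases. Mutants in either complex have distorted trichomes and altered pavement cells.

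The tubulin and actin genes are families of similar copies, and their sequences bear on how well counts can be assigned. Within families, coding sequences were aligned in every pair of loci (RefSeq annotation, assembly TAIR10.1). Identity ranged between 78.7% and 97.6% over 36 pairs of beta-tubulins, and its median was 82.3% over 28 pairs of actins. The closest were TUA3 and TUA5, neighbouring genes with 97.9% identity and 29 differences in 1353 bases, TUB2 and TUB3, also neighbours, with 97.6% and 32 differences, and TUA2 and TUA4, which are not neighbours, with 96.6% and 46 differences. The longest stretch without a difference was 290 bases in TUA3 and TUA5, 227 bases in TUB2 and TUB3 and 158 bases in TUA2 and TUA4. The first 90 coding bases of these copies, and of the profilins PRF2 and PRF1, are shown 5′ to 3′ on the coding strand because the levels of these close copies are set side by side below. Capitals mark the bases that differ from the partner shown with it.
TUA4: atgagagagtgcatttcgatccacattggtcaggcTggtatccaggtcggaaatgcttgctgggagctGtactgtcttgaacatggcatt
TUA2: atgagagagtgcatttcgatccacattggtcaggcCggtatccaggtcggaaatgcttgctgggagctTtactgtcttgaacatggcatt
TUA5: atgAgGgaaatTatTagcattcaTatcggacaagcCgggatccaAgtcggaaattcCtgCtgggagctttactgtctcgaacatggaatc
TUA3: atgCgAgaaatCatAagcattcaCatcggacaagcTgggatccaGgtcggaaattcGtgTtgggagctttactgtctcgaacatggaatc
TUB2: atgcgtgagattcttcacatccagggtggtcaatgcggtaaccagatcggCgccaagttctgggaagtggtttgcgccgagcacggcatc
TUB3: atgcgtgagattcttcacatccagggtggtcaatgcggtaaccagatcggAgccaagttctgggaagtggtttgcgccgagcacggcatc
PRF2: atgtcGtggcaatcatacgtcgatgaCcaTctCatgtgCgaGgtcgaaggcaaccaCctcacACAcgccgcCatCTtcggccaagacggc
PRF1: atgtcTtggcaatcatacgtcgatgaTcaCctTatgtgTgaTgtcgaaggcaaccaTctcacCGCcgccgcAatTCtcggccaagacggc

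In these windows TUA4 and TUA2 differed at 2 of 90 bases, TUA5 and TUA3 at 9, TUB2 and TUB3 at 1 and PRF2 and PRF1 at 13. Over the whole spliced transcript, 612 of the 1915 windows of 50 bases in TUA3 occurred in TUA5, where they were 35.4% of the windows. The same share was 22.3% for TUB2 with TUB3, and 9.56% for TUA2 with TUA4. How the authors treated reads that match several genes is not given in the sources used here, so the split within these sets is uncertain. Some members also overlap a neighbour on the opposite strand. Such an overlapping transcript holds 26.8% of the windows of TUA1, 29.2% of TUB1, 20.7% of TUB7 and 19.1% of TUB9. For isoform 1 of SPR1 the share was 17.2%. In its listed isoform 2, 42.8% of the windows occurred in other loci. The strand setting of the counting is not given, so reads of the members and of those neighbours cannot be told apart.

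Levels are compared between genes as CPM per kilobase of the longest annotated transcript (CPM per kb), and the mean of both libraries is given with its SD (n = 2). A gene is said to differ between the libraries where an exact binomial test (two-sided) found its counts split unlike the library sizes, at a Benjamini-Hochberg adjusted p below 0.05 over all models tested. This test compares these libraries with counting noise and says nothing on conditions. It was run on models with a mean of 5 CPM or more, which 59.7% of listed models reached, and it called 55.3% of those 10701 models. Of the 35 listed members, 27 reached 5 CPM and 10 reached 100 CPM, a level reached by 11.1% of listed models. The median over listed members was 15.1 CPM per kb, and over all listed models with a known length it was 6.09 CPM per kb. Among those tested, the medians were closer, at 22.4 CPM per kb over members and 18.3 CPM per kb over all models.

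**Figure D1:**
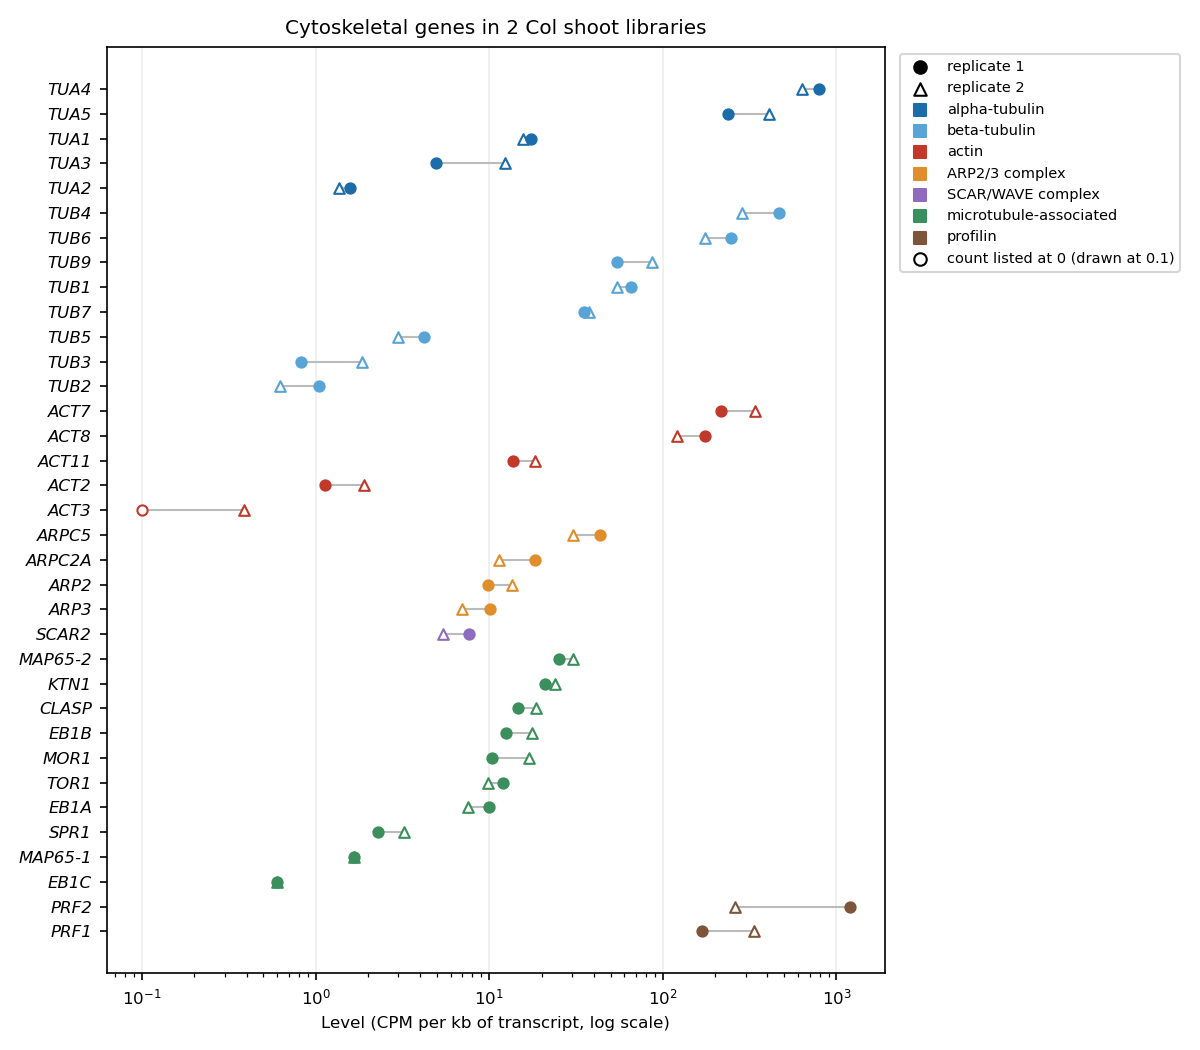
Level of each listed member on a log axis, in CPM per kb of transcript, grouped by role and sorted by mean within the role. Filled circles are Col replicate 1 and open triangles Col replicate 2. TUA4, TUA5, TUB4, TUB6, ACT7, ACT8 and the profilins PRF2 and PRF1 lie above 100 CPM per kb in both libraries, and ACT3 is listed at 0 in replicate 1.

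Among the 5 listed alpha-tubulins, TUA4 and TUA5 took nearly all the reads. TUA4 (AT1G04820) had 3896 reads in replicate 1 and 3119 in replicate 2, and TUA5 (AT5G19780) had 1056 and 1801. On the per-length scale TUA4 stood at 793 and 637 CPM per kb and TUA5 at 238 and 407 CPM per kb, so TUA4 was the higher gene in either library. TUA4 took 77.1% of the listed alpha-tubulin reads in replicate 1 (Wilson 75.9 to 78.2) and 61.8% in replicate 2 (60.4 to 63.1). TUA5 took 20.9% (19.8 to 22.0) and 35.7% (34.4 to 37.0). Both differed between the libraries and in opposite directions, TUA4 with a log2 ratio (replicate 1 over replicate 2) of 0.32 and TUA5 with −0.77 (exact binomial test, adjusted p = 5.88e-19 and 1.86e-43). The family total moved little, with 5055 reads in replicate 1 and 5050 in replicate 2, or 1055 and 1073 CPM per kb.

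The other alpha-tubulins were far lower. TUA1 (AT1G64740), known for its expression in pollen, had 72 reads in replicate 1 and 64 in replicate 2, or 16.5 ± 1.35 CPM per kb. TUA3 (AT5G19770), the close copy of TUA5, had 24 and 60 reads, or 4.90 and 12.3 CPM per kb. It was the only alpha-tubulin that differed more than 2-fold, with a log2 ratio of −1.28 (adjusted p = 0.000225 by the exact binomial test), and like TUA5 it was higher in replicate 2. TUA2 (AT1G50010), the close copy of TUA4, had 7 and 6 reads, or 1.58 and 1.36 CPM per kb. Its share of the listed alpha-tubulin reads was 0.138% in replicate 1 (0.0671 to 0.286) and 0.119% in replicate 2 (0.0545 to 0.259). So within each of these alpha-tubulin pairs one gene held nearly all the reads. TUA6 (AT4G14960), which is 95.7% identical to TUA4 in coding sequence, was not listed.

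Beta-tubulin was spread over more genes. TUB4 (AT5G44340) had 2102 reads in replicate 1 and 1275 in replicate 2, or 469 and 286 CPM per kb. TUB6 (AT5G12250) had 1207 and 860 reads, or 246 and 176 CPM per kb. TUB4 was the higher of the pair in either library, and both genes were higher in replicate 1, with log2 ratios of 0.72 and 0.48. TUB9 (AT4G20890), known from pollen, had 295 and 469 reads, or 54.3 and 86.6 CPM per kb, and was higher in replicate 2 (log2 ratio −0.67). TUB1 (AT1G75780) had 293 and 244 reads, or 65.3 and 54.5 CPM per kb, and TUB7 (AT2G29550) had 159 and 170, or 35.1 and 37.7 CPM per kb. TUB9 and TUB1 changed places in the order from one library to the other, so their levels were not separated beyond the spread. TUB1 and TUB7 did not pass the test (exact binomial test, adjusted p = 0.0669 and 0.638).

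At the low end, TUB5 (AT1G20010) had 21 reads in replicate 1 and 15 in replicate 2, or 3.59 ± 0.840 CPM per kb. TUB2 (AT5G62690) had 5 and 3 reads and TUB3 (AT5G62700) had 4 and 9, so these neighbouring copies, which differ at 32 coding bases, were both below 5 CPM. TUB8 (AT5G23860) was not listed. The beta-tubulin sum was 877 CPM per kb in replicate 1 and 646 CPM per kb in replicate 2. The sum of the listed alpha-tubulins was 1.20 times that of the listed beta-tubulins in replicate 1 and 1.66 times in replicate 2. This ratio leaves out TUA6 and TUB8 and does not describe the protein dimer.

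Among the 5 listed actin models, ACT7 and ACT8 had the highest levels. Both belong to the vegetative class of Arabidopsis actins, together with ACT2, while ACT1, ACT3, ACT4, ACT11 and ACT12 form the reproductive class. ACT7 (AT5G09810) had 978 reads in replicate 1 and 1526 in replicate 2, or 217 and 339 CPM per kb. ACT8 (AT1G49240) had 790 and 540 reads, or 176 and 120 CPM per kb. ACT7 was above ACT8 in either library, but the pair moved apart: ACT7 was higher in replicate 2 (log2 ratio −0.64) and ACT8 in replicate 1 (0.54). ACT7 took 53.3% of the reads of the listed actin models in replicate 1 (51.0 to 55.6) and 70.7% in replicate 2 (68.7 to 72.6). ACT8 took 43.1% (40.8 to 45.3) and 25.0% (23.2 to 26.9). Both passed the exact binomial test (adjusted p = 4.20e-27 and 6.84e-11).

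ACT11 (AT3G12110) had 61 reads in replicate 1 and 81 in replicate 2, or 16.0 ± 3.21 CPM per kb, and did not pass the test (adjusted p = 0.146 by the exact binomial test). ACT2 (AT3G18780), which is 91.0% identical to ACT8 in coding sequence, had 6 and 10 reads, or 1.13 and 1.89 CPM per kb. ACT2 is known as a strongly expressed gene of vegetative tissue and is widely used for normalization. ACT3 (AT3G53750) was listed at 0 in replicate 1 and at 2 in replicate 2. No model is listed at a count of 1 in these libraries, so a listed 0 may stand for 0 or 1. ACT1 (AT2G37620), ACT4 (AT5G59370) and ACT12 (AT3G46520) were not listed.

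**Figure D2:**
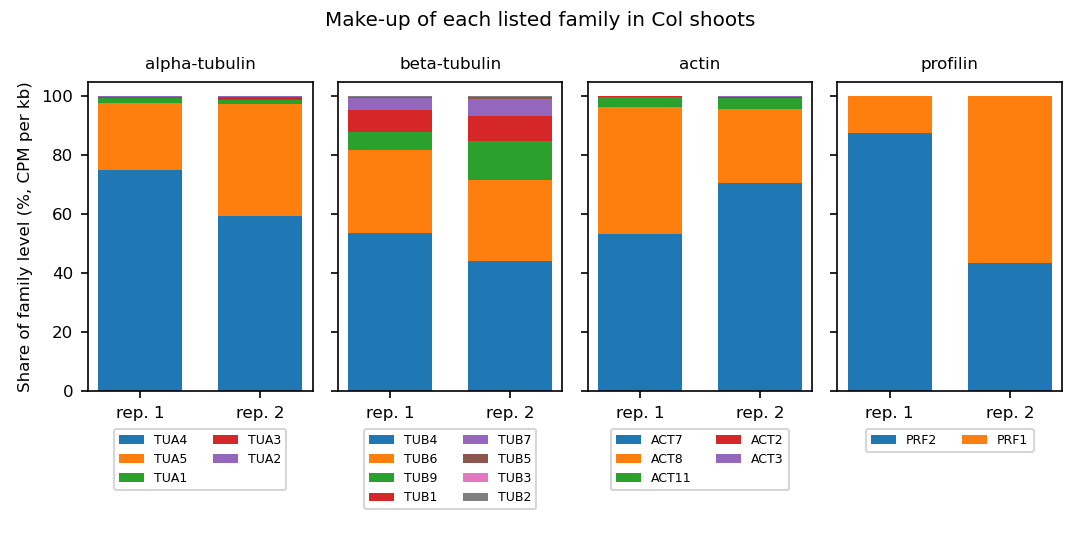
Make-up of the listed alpha-tubulin, beta-tubulin, actin and profilin families in Col replicates 1 and 2. Bars stack each gene's share of the family's summed level (CPM per kb), in percent. TUA4 and TUA5 together fill nearly the whole alpha-tubulin bar, and the leading profilin is PRF2 in replicate 1 and PRF1 in replicate 2.

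The ARP2/3 complex, which nucleates actin branches, was led by ARPC5 among its listed subunits. ARPC5 (AT4G01710, CROOKED) had 112 reads in replicate 1 and 78 in replicate 2, or 43.4 and 30.3 CPM per kb. ARPC2A (AT1G30825, DISTORTED2) had 63 and 39 reads, or 18.2 and 11.3 CPM per kb. Of the actin-related proteins that give the complex its name, ARP2 (AT3G27000) had 41 and 56 reads, or 9.82 and 13.4 CPM per kb, and ARP3 (AT1G13180, DISTORTED1) had 51 and 35, or 10.14 and 6.97 CPM per kb. ARPC5 was above the others in both libraries, and ARPC2A was above ARP3 in both. The range of ARP2 overlapped those of ARPC2A and ARP3. ARPC5 and ARPC2A were called higher in replicate 1 (exact binomial test, adjusted p = 0.0316 and 0.0413), but neither call held without library scaling (adjusted p = 0.0842 and 0.0802). ARPC4 (AT4G14147) was not listed.

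Of the 4 member loci for the SCAR/WAVE complex, which activates ARP2/3, only SCAR2 was listed. SCAR and ARP2/3 partners outside the member set are given further below. SCAR2 (AT2G38440), the subunit that contacts ARP2/3, had 93 reads in replicate 1 and 66 in replicate 2, or 7.64 and 5.44 CPM per kb. The difference did not pass the test (adjusted p = 0.0679 by the exact binomial test). BRK1 (AT2G22640), NAP1 (AT2G35110, GNARLED) and PIR (AT5G18410, PIR121) were not listed.

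All 10 microtubule-associated genes were listed, and 7 reached 5 CPM. The highest was MAP65-2 (AT4G26760), a bundling protein that cross-links microtubules, with 139 reads in replicate 1 and 167 in replicate 2, or 25.1 and 30.2 CPM per kb. KTN1 (AT1G80350), the catalytic subunit of the severing enzyme katanin, had 103 and 117 reads, or 20.9 and 23.8 CPM per kb. Both genes kept these places in either library. Neither passed the test (exact binomial test, adjusted p = 0.167 and 0.441).

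CLASP (AT2G20190), which attaches microtubules to the cell cortex, and MOR1 (AT2G35630), which promotes growth at microtubule ends, were the only genes of the group that differed between the libraries. CLASP had 180 reads in replicate 1 and 228 in replicate 2, or 14.7 and 18.7 CPM per kb, with a log2 ratio of −0.34 (adjusted p = 0.0332 by the exact binomial test). MOR1 had 179 and 290 reads, or 10.4 and 16.9 CPM per kb, with a log2 ratio of −0.70 (adjusted p = 1.20e-06). Both were higher in replicate 2. The end-binding genes EB1B (AT5G62500) and EB1A (AT3G47690) stood at 15.1 ± 3.69 and 8.77 ± 1.70 CPM per kb. TOR1 (AT4G27060), a microtubule-associated protein also known as SPIRAL2, stood at 10.9 ± 1.55 CPM per kb.

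The remaining members of the group were below 5 CPM. MAP65-1 (AT5G55230) had 11 reads in each library, although its relative MAP65-2 had 139 and 167. SPR1 (AT2G03680), a plus-end protein whose loss twists organs, had 5 reads in replicate 1 and 7 in replicate 2, counted on its isoform 2. EB1C (AT5G67270), a nuclear and spindle form of EB1, had 2 reads in each.

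The profilins, small proteins that bind actin monomers and deliver them to growing filaments, included the member with the widest difference among those tested. PRF2 (AT4G29350) had 2720 reads in replicate 1 and 591 in replicate 2, or 1189 and 259 CPM per kb. PRF1 (AT2G19760) had 393 and 786 reads, or 168 and 337 CPM per kb. PRF2 was therefore the highest of all listed members in replicate 1, and in replicate 2 it stood below PRF1. The log2 ratio was 2.20 for PRF2 and −1.001 for PRF1, and both passed the exact binomial test. The profilin sum was 1357 CPM per kb in replicate 1 and 596 CPM per kb in replicate 2, the widest spread of the family sums given here. The coding sequences of these genes are 83.1% identical over 396 bases, and neither transcript shares a 50-base window with another locus. ADF3 (AT5G59880) and ADF4 (AT5G59890), neighbouring genes for proteins that sever and depolymerize actin, were not listed.

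Over all roles, 14 of 27 tested members differed between the libraries (51.9%), 7 higher in replicate 1 and 7 higher in replicate 2. This share is near the 55.3% of all models tested, of which 27.6% were higher in replicate 1 and 27.7% in replicate 2, and so is not a result about the cytoskeletal genes. A call with a difference of at least 2-fold was made for 3 members, TUA3, PRF1 and PRF2, and for 25.8% of all models tested. PRF1 lay at the 2-fold mark itself, and its log2 ratio was −0.9977 with median-of-ratios (RLE) scaling and −0.9945 with a pseudocount of 2 CPM. The median absolute log2 ratio was 0.48 over tested members and 0.58 over all models tested, and the median log2 ratio was 0.16 and −0.0034.

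**Figure D3:**
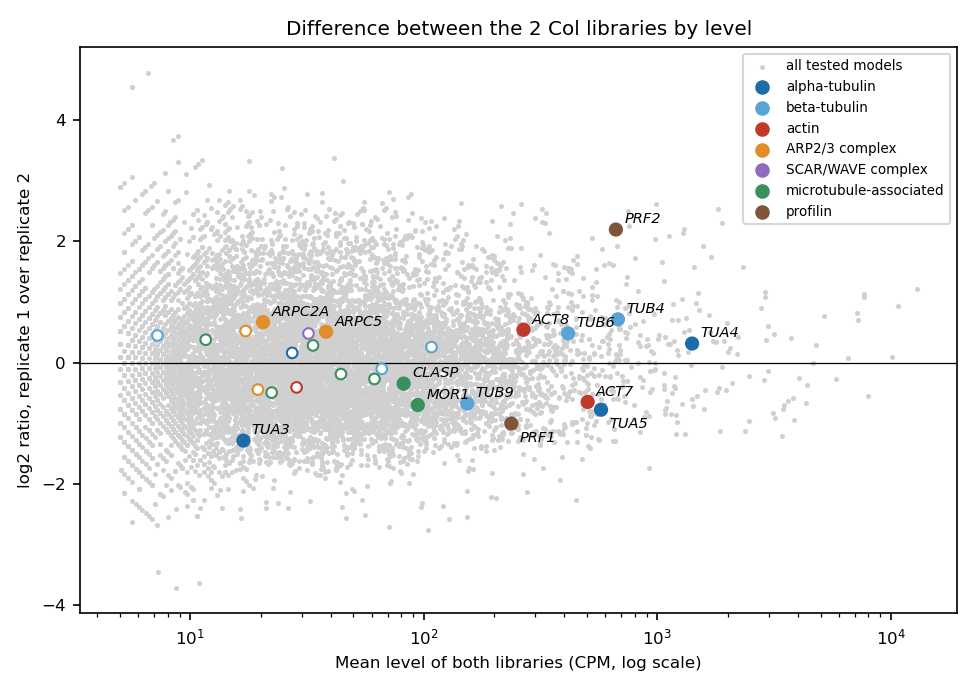
Log2 ratio of replicate 1 over replicate 2 against the mean level in CPM (log axis) for all tested models (grey) and the 27 tested members (coloured by role, filled and named where the exact binomial test made a call). PRF2 at 2.20 and TUA3 at −1.28 lie at the ends of the members' range, and the other members lie between −1.001 and 0.72.

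Which members were listed went with the number of transcripts annotated for the locus. Of 15 members with several transcripts in the RefSeq annotation, 5 were listed and 1, MOR1, reached 5 CPM. Of 31 members with 1 transcript, 30 were listed and 26 reached 5 CPM. The other 4 listed members with several transcripts were ACT2, ACT3, SPR1 and MAP65-1, each under 5 CPM, and 10 of the 11 members not listed had several transcripts, BRK1 being the exception. Among all protein-coding loci, 53.1% of 10693 with several transcripts and 65.8% of 16857 with 1 were listed. Of those listed, 57.0% with several and 64.6% with 1 reached 5 CPM, and their median levels were 8.44 CPM with several and 14.7 CPM with 1. Of the transcripts of ACT2, ACT3, SPR1 and MAP65-1 that carry the listed name, between 87.6% and 99.7% of the 50-base windows also occurred in another transcript, of the same or another locus. MOR1 was also at 98.3% and had 179 and 290 reads. Among listed models, 55.7% of the 4211 with under 10% of windows found in no other transcript reached 5 CPM. The share was 54.0% of 2209 models with 10% to 50% such windows and 63.9% of 9932 with 90% or more. The way reads were shared out between isoforms is not given, and its part in the low counts of ACT2, ACT3, SPR1 and MAP65-1 was not tested. Each count given here is that of a single listed model, and no member has several listed models. Whether the whole gene is higher than its listed isoform cannot be told from these counts.

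**Figure D4:**
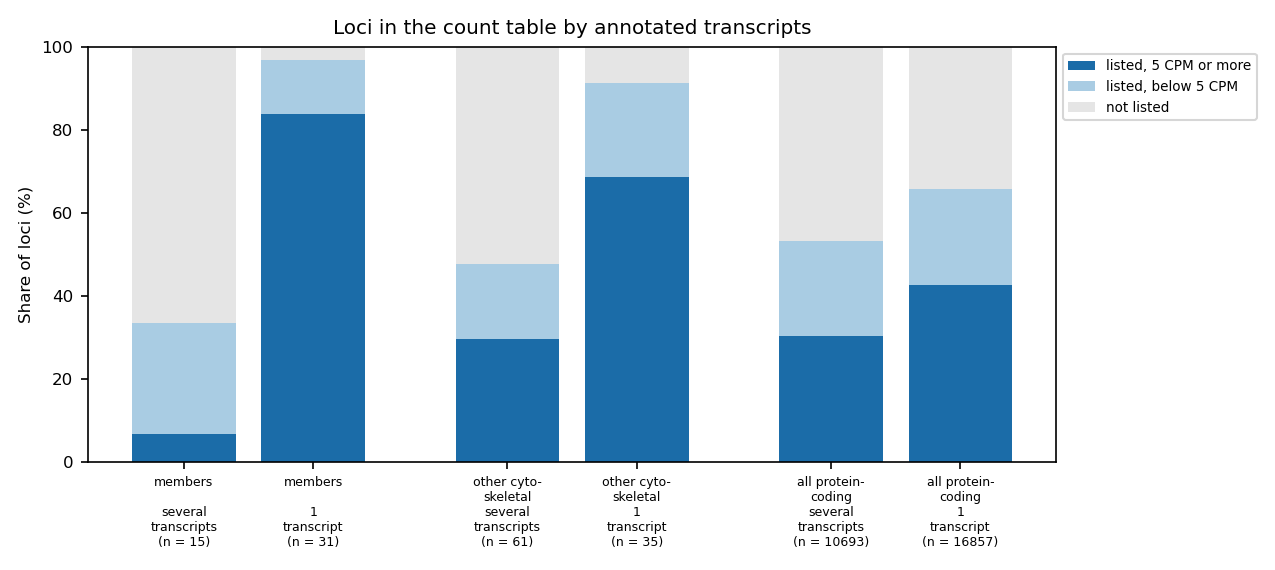
Share of loci (percent) listed at 5 CPM or more, listed below 5 CPM and not listed, for loci with several annotated transcripts and with 1, among the 46 members, 96 other cytoskeletal genes and all protein-coding loci. Members with several transcripts are mostly not listed, and those with 1 transcript are mostly at 5 CPM or more.

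Other genes of the cytoskeleton were taken from a list of 96, of which 61 were listed and 42 reached 5 CPM. The test called 18 of those 42, 5 higher in replicate 1 and 13 higher in replicate 2, a share of 42.9% against the 55.3% of all models tested. Their median was 5.96 CPM per kb over listed genes. The highest of all was WLIM1 (AT1G10200), a LIM protein that bundles actin, with 238 CPM per kb in replicate 1 and 311 CPM per kb in replicate 2. WLIM2a followed in its role at 91.2 and 97.5 CPM per kb.

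Among the other ADFs, ADF2 (AT3G46000) stood at 233 CPM per kb in replicate 1 and 290.5 CPM per kb in replicate 2, and ADF6 (AT2G31200) at 172 and 182 CPM per kb. ADF2 was called higher in replicate 2 (log2 ratio −0.32), and ADF6 was not called (adjusted p = 0.470 by the exact binomial test). ADF1, ADF8, ADF11, PRF4 and PRF5 were listed at 0 in both libraries. The nucleation genes were led by TON1A (AT3G55000), needed for ordered cortical arrays, at 84.1 and 68.0 CPM per kb, and by FASS (AT5G18580), a phosphatase subunit of the same pathway, at 37.6 and 77.7 CPM per kb. TON1A stood above FASS in replicate 1 and below it in replicate 2. Between the libraries, TON1A was called higher in replicate 1 and FASS higher in replicate 2. The gamma-tubulin genes TUBG1 (AT3G61650) and AT5G05620, annotated as GCP2, were also at 0 in both libraries. A listed 0 does not by itself show that a gene is silent, and the reason for these zeros was not tested.

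The tubulin folding cofactors were led by EMB2804 (AT3G10220) at 35.3 ± 7.88 CPM per kb and POR (AT4G39920) at 25.6 ± 5.87 CPM per kb. Of the formins, which nucleate unbranched actin filaments, AFH1 (AT3G25500) stood at 37.6 ± 0.167 and FH6 (AT5G67470) at 12.9 ± 0.489 CPM per kb. Both formins had nearly the same level in either library and neither was called. The SCAR and ARP2/3 partners were led by ABIL4 (AT5G42030) at 52.1 ± 6.56 and ARPC1B (AT2G31300) at 15.5 ± 4.63 CPM per kb.

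CSI1 (AT2G22125), which links cellulose synthase to microtubules, stood at 21.3 ± 0.948 CPM per kb, and MAP70-1 (AT1G68060) at 18.4 ± 4.17 CPM per kb. The kinesin FRA1 (AT5G47820), known for its effect on cellulose microfibrils, stood at 23.9 ± 3.56 CPM per kb and ATK5 (AT4G05190), a spindle kinesin, at 5.96 ± 2.16 CPM per kb. Both kinesins were called higher in replicate 2. Of 8 myosin genes 3 were listed, MYA1 (AT1G17580) at 16.4 ± 0.858 CPM per kb and XIH (AT4G28710) at 0.308 ± 0.218 CPM per kb, with XIB at 0 in both libraries.

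**Figure D5:**
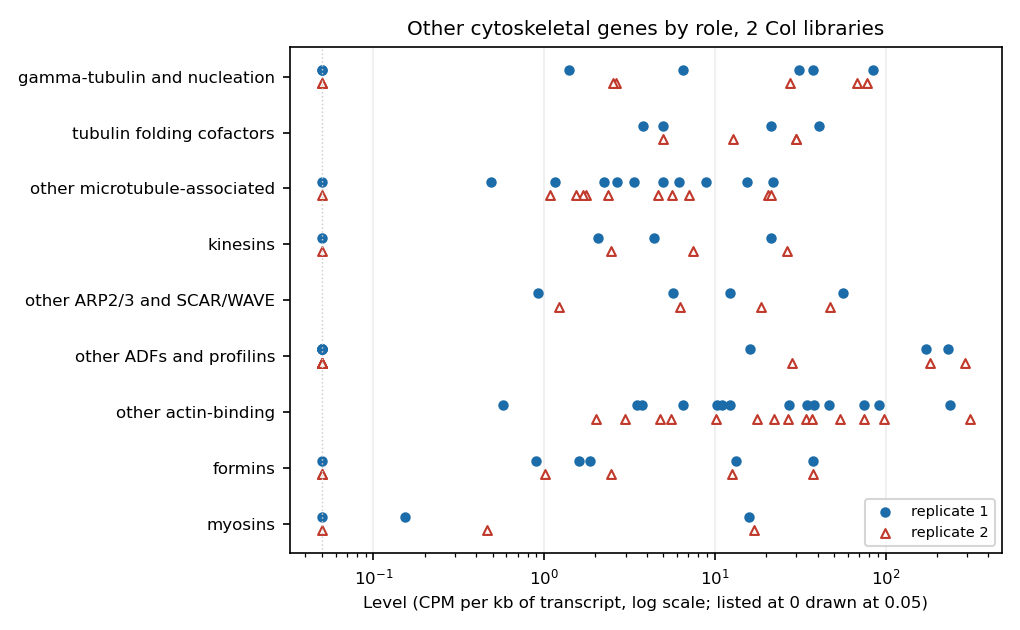
Level of the 61 listed genes of the wider cytoskeletal list by role, in CPM per kb of transcript (log axis), with filled circles for Col replicate 1 and open triangles for replicate 2. Genes listed at 0 are drawn at 0.05. The highest points are WLIM1 among other actin-binding genes and ADF2 among other ADFs and profilins.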

How the data were processed

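The authors deposited raw read counts, 1 per gene model, marked as raw in the file headers. The genome build is TAIR10 per the submitters' processing notes. How reads were aligned, assigned to strands and isoforms, counted and filtered is not given in the sources used here. Of the count columns, 6 match no sample title and were not used. The Col columns, replicates 1 and 2, were scaled by TMM in edgeR 4.0.16 (R 4.3.3) across all 17921 models. CPM was divided by the length of the longest spliced transcript in the RefSeq annotation of TAIR10.1, known for 17276 models. No coordinates of that assembly are printed, since it is not the named build. Transcripts were cut into windows of 50 bases and matched on both strands. Log2 ratios add 0.5 CPM to each library.

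Models with a mean of 5 CPM or more were tested with scipy 1.17.1 by an exact two-sided binomial test. It was first run on simulated counts with counting noise only. There it called 68% of 100 models changed 2-fold in the right direction, and 0.0858% of 10495 unchanged models. Those counts held no other variation, so the simulation cannot show how the test behaves on real replicates. The labels call the replicates biological but name no separate plates or days, so their spread may be in part technical. Genotypes were not compared. All members are named. Of the wider list, the 2 genes of each role with the highest level are named. The genes at 0 and the marks of 100 CPM and 2-fold were picked after their values were seen. The members and lists were chosen with earlier results of these data known. Other scalings, filters, lengths and pseudocounts were tried.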

Additional observations from a re-analysis of the deposited data

How the results depend on the processing

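The counts of members at 5 CPM or more (27) and of members beyond counting noise (14) stayed within 26 to 27 and 12 to 14 under the other scalings and, for the tests, under filters at 1 and 20 CPM or none. Without scaling, 12 members were called, since ARPC2A and ARPC5 were lost. When the total printed in the column header was the library size, which exceeds the sum of listed reads, levels fell by construction. The member median fell to 8.27 CPM per kb. The sums of alpha-tubulin, beta-tubulin, actin and profilin fell to 580.2, 414, 242 and 529.5 CPM per kb. The members' median log2 ratio, 0.16, was then −0.0077 over 26 tested members. Coding length in place of transcript length raised levels by construction, to a member median of 20.2 CPM per kb. The sums became 1501 for alpha-tubulin, 1068 for beta-tubulin, 708 for actin and 2277 CPM per kb for profilin. As a mean of both libraries, profilin then exceeded alpha-tubulin. With transcript length, profilin was already above alpha-tubulin in replicate 1 (1357 against 1055 CPM per kb). In replicate 2 it was below (596 against 1073 CPM per kb). Using 1 library at a time, the profilin sum ranged from 596 to 1357 CPM per kb and the ratio of alpha- to beta-tubulin sums from 1.20 to 1.66. The length of the listed model's own transcript, an alternative chosen after seeing the data, changed none of the sums. No paired analysis was possible because only the columns of 1 group, Col, match the sample labels. The 8 listed members below 5 CPM rest on few reads and were not tested at the 5 CPM filter; 33 members were tested at 1 CPM and 35 with no filter.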
